A study of Mus musculus with 8 samples.

Results

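The major urinary proteins (Mups) are small secreted lipocalins, proteins with a barrel-shaped pocket that holds volatile pheromones. They are made by hepatocytes, released into the blood and filtered into urine, where male mice deposit them as scent marks. The family lies in 1 cluster on chromosome 4 as many near-identical copies beside a few diverged ones, and its transcripts are among the most abundant in male mouse liver. Transcription of the liver copies is known to depend on the pulsed, male pattern of growth hormone, with testosterone, thyroid hormone and glucocorticoids acting as well. Described here are 9 genes of the 45777 listed in the deposited table: Mup1, Mup2, Mup3, Mup7, Mup12, Mup13, Mup17, Mup20 and Mup21. They were chosen because several of them were called lower in C2-AKT when single libraries were left out of the comparison with control, so their difference in that comparison is given as a description and is not tested. A further 21 rows carry a Mup symbol, 13 with a number and 8 with a pseudogene symbol (Mup-ps), and are used as the family background.

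Livers came from male C57BL6 mice fed a high-fat diet for 10 weeks from the age of 8 weeks, and polyadenylated RNA was sequenced. The 4 C2-AKT libraries are from mice with a C2-AKT sequence at the ROSA26 locus, crossed with mice that express Cre recombinase from the albumin promoter, which acts in hepatocytes. The 4 control libraries are labelled wild type, C2-AKT (-/-), and the labels do not say whether those mice carried Cre. AKT is a kinase that relays the insulin signal, and the high-fat diet is shared by both groups. Replicates are numbered 2 to 5 in each group. The first number of the titles is 2 for all controls and 4 for all C2-AKT libraries, and its meaning, which the labels do not give, cannot be told apart from genotype. It is not stated that each library is a separate animal, so the spread given is between libraries.

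Total counts per library ran from 51.4 M to 63.8 M (M, mega). Gt(ROSA)26Sor, the transcript of the locus that was altered, was at 4.62 to 7.77 CPM (counts per mega of the scaled library size) in control and at 0 to 0.676 CPM in C2-AKT libraries. C2-AKT replicate 2 (0.309 CPM) lay with its group. These values do not measure the C2-AKT sequence itself, so its expression in any library is not shown. Akt1 was at 30.1 to 47.0 CPM in control and 29.7 to 53.8 CPM in C2-AKT libraries, and Akt2 at 67.3 to 103 CPM and 61.4 to 94.1 CPM. The titles of the C2-AKT libraries begin with C2AKT1F, and the labels do not otherwise say which isoform C2-AKT carries. C2-AKT replicate 5 stood apart through pancreatic RNA: 10 acinar cell markers summed to 96447 CPM there and to between 7.81 and 24.1 CPM in the other 7 libraries. The 8 hepatocyte markers summed to 64240 to 90372 CPM in control and 72499 to 90355 CPM in C2-AKT libraries, so the defining transcripts of the labelled tissue were present throughout. In C2-AKT replicates 3 and 4 the acinar markers summed to 9.19 and 24.1 CPM, and the Mup sum was at 40.3% and 47.9% of its control mean there. The 5 adipocyte markers summed to 20.6 to 55.6 CPM in control, to 30.9 CPM in C2-AKT replicate 2 and to 8.42 to 18.9 CPM in C2-AKT replicates 3, 4 and 5. Most of that sum came from Cfd and Adrb3, while Plin1 was at 0 in 7 libraries and Adipoq and Lep were highest in control replicate 3 (1.80 and 2.86 CPM) and C2-AKT replicate 5 (0.951 and 0.740 CPM). The part of adipocyte RNA in the Mup values was not tested. The summed markers of Kupffer cells, endothelial cells, stellate cells, cholangiocytes and lymphocytes overlapped between the groups.

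Because the copies resemble each other so closely, their sequences are shown before their levels. All 9 members lie on the minus strand of chromosome 4 (GRCm38.p6, RefSeq) between positions 60066469 and 62150841, a span of 2084 kb. In order along the chromosome they are Mup7 (Entrez gene 100041658, chr4:60066469-60070475), Mup2 (17841, chr4:60135913-60139977), Mup1 (17840, chr4:60498012-60501960) and Mup12 (100039054, chr4:60737381-60741416). Further along lie Mup13 (100039089, chr4:61224308-61228252), Mup17 (100039206, chr4:61591929-61595865), Mup20 (381530, chr4:62011337-62054143), Mup3 (17842, chr4:62083476-62087317) and Mup21 (381531, chr4:62147832-62150841). The same 60 bases of the coding sequence, in 1 exon of each gene, are given 5′ to 3′ from the GENCODE transcripts of GRCm38, with capitals marking bases that differ from Mup1. They start at coding base 236 in the close copies (chr4:60500448-60500507 in Mup1), at 248 in Mup3 and at 239 in Mup20 and Mup21.
Mup1: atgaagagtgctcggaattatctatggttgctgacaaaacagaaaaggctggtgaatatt
Mup2: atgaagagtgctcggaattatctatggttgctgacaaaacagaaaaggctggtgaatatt
Mup3: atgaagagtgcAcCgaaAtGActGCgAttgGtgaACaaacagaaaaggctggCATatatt
Mup7: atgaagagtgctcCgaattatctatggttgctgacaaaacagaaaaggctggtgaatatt
Mup12: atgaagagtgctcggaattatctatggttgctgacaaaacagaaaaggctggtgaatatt
Mup13: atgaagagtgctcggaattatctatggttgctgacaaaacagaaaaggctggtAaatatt
Mup17: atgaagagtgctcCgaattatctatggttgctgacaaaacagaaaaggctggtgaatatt
Mup20: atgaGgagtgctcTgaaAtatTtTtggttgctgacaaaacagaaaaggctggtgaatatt
Mup21: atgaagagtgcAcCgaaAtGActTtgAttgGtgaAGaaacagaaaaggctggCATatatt

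The 60-base stretch had 6 distinct sequences in 9 genes, the most in any stretch of that length searched, and was picked for that. Mup1, Mup2 and Mup12 were identical over it, Mup7 and Mup17 shared 1 sequence with 1 base different from Mup1, and Mup13 differed at 1 other base. Mup20 differed at 5 bases, Mup21 at 13 and Mup3 at 14. Over whole transcripts, Mup1, Mup2, Mup7, Mup12, Mup13 and Mup17, called the close copies here, were 98.3% to 99.7% identical in all 15 pairs. Mup20 was 88.6% to 91.2% identical to the other members, and Mup3 and Mup21 were 96.1% identical to each other and less so to the rest. A read of 100 bases would be ambiguous to very different degrees: 97.3% of the 100-base windows of Mup2 also occur in another Mup gene, against 87.2% for Mup1, 81.8% for Mup13, 81.6% for Mup7, 77.5% for Mup12 and 59.4% for Mup17. The share was 38.8% for Mup20, 4.50% for Mup21 and 2.94% for Mup3. The sources used here do not state how reads that fit several genes were assigned, so the value of any 1 close copy is uncertain. Of the members' 100-base windows, 0 occurred in a gene outside the Mup family.

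Promoter windows of 300 bases, from 250 before to 50 after the annotated start, were found in RefSeq (GRCm38.p6) for 5 of the 9 members. Mup17 (chr4:61595783-61596082) is shown as the close copy with the largest fold difference between the groups, and Mup3 (chr4:62087268-62087567) and Mup21 (chr4:62150792-62151091) as the diverged copies with the smallest. Capitals mark TATATAA.
Mup17: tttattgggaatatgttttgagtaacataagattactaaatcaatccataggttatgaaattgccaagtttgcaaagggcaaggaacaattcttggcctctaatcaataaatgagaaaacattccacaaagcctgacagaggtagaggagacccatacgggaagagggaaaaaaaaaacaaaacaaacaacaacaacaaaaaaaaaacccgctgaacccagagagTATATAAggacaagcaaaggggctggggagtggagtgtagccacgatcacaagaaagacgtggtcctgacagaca
Mup3: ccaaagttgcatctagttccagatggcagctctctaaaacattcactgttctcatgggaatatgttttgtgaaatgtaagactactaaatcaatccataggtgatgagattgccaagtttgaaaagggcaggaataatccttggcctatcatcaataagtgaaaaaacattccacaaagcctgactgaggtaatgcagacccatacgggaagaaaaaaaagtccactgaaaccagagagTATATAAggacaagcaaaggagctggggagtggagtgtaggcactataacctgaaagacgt
Mup21: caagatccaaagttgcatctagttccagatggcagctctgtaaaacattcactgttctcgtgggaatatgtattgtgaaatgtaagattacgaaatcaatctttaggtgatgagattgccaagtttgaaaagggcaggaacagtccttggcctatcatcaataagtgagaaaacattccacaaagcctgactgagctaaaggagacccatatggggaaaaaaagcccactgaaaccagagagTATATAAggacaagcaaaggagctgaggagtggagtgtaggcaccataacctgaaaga

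TATATAA was found on either strand in the windows of Mup2, Mup3, Mup17 and Mup21 and not in that of Mup7, and in 3.22% of 32544 promoter windows of the same length, and it was added after the promoters were seen. The annotated start of Mup7 lies further upstream, and its window ends shortly after CCCATA, so the bases that hold TATATAA in the other copies lie outside it. Between CCCATA and TATATAA lie 71 bases in Mup2 and 68 in Mup17, against 34 in Mup3 and 31 in Mup21. The longer stretch of Mup2 and Mup17 is mostly adenine, with 43 A in Mup2 and 41 in Mup17, against 17 in Mup3 and 14 in Mup21. It was not measured in the other close copies. The windows of Mup2 and Mup17 were 99.3% identical and those of Mup3 and Mup21 93.9% identical, while Mup3 and Mup17 were 87.6% identical over the 251 bases aligned. Other motifs were searched on both strands: TTCNNNGAA (STAT) was in 0 of the 5 members' windows and 8.33% of all windows, TATAAA in 0 and 13.6%, and CAAAGTCCA (HNF4) in 0 and 0.479%. AGAACA, 1 arm of a glucocorticoid receptor element, was in the windows of Mup3 and Mup21 and in 18.9% of all windows. TATAAA overlaps TATATAA where a further A follows. These matches describe letters in a window only.

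Summed over the 9 members, the level was 27535, 31324, 33872 and 28662 CPM in control replicates 2 to 5 and 31869, 12239, 14547 and 8791 CPM in C2-AKT replicates 2 to 5. C2-AKT replicate 2 lay within the control range, and the other C2-AKT libraries lay far below it, at 40.3%, 47.9% and 29.0% of the control mean. The control mean was 30348 ± 2836 CPM and the C2-AKT mean 16861 ± 10281 CPM (SD, n = 4 each), so the SD in C2-AKT libraries came from 1 library at the control level and 3 at low levels. The log2 ratio of the group means was -0.85 over all 8 libraries. It was -1.36 without C2-AKT replicate 2 and -0.63 when replicate 5 was left out instead, the library with pancreatic RNA. The hepatocyte markers in C2-AKT replicates 3, 4 and 5 summed to 117%, 106% and 99.0% of their control mean. Most of that sum was Alb, with 53319 of 73254 CPM in the control mean. Single markers went both ways in these libraries. Ttr was at 135%, 105% and 104% of its control mean, and Cps1 at 108%, 110% and 65.5%. Hnf4a was at 80.7%, 103% and 85.7%, and Cyp3a11 at 47.2%, 28.7% and 64.0%. Whether hepatocyte content differed was not tested. Whether fewer hepatocytes held Mup RNA or each held less cannot be told apart in bulk tissue.

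The members took 2.81%, 3.26%, 3.52% and 2.74% of all counts in control replicates 2 to 5, and all 30 Mup rows took 6.29%, 7.50%, 7.81% and 6.09%. In C2-AKT replicate 2 the members took 3.09% and all Mup rows 7.20%. In C2-AKT replicates 3, 4 and 5 the members took 1.28%, 1.55% and 0.771% and all Mup rows 2.96%, 3.64% and 1.80%. Exact 95% Clopper-Pearson intervals for the members' shares were as narrow as 2.735% to 2.743% in control replicate 5 and 1.278% to 1.284% in C2-AKT replicate 3, covering counting error only. Counting error was therefore small beside the spread between libraries. Of the 100 genes with the highest counts, 18 or 19 were Mup rows in each control library and 19 in C2-AKT replicate 2, against 9, 11 and 4 in C2-AKT replicates 3, 4 and 5. Pancreatic transcripts are part of the total and of this ranking in C2-AKT replicate 5. The 10 acinar markers alone summed to 96447 CPM there. Genes that the filter removed held 17.2% of its counts, against 0.032% to 0.0478% in the other libraries.

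**Figure D1:**
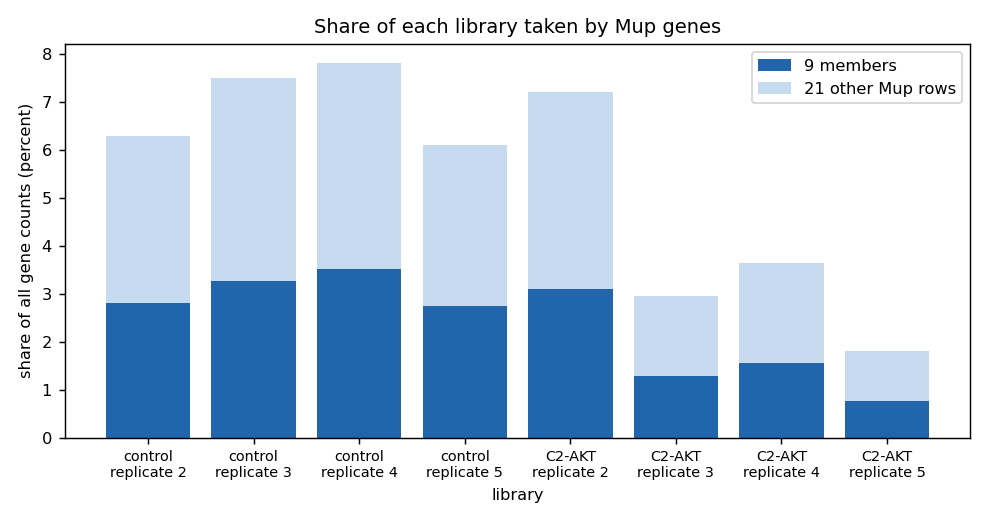
Share of all gene counts (percent) taken by the 9 members (dark) and the 21 other Mup rows (light) in each library, shown as stacked bars. The 4 control libraries and C2-AKT replicate 2 lie between 6.09% and 7.81% in all, and C2-AKT replicates 3, 4 and 5 between 1.80% and 3.64%. The total of C2-AKT replicate 5 includes pancreatic RNA.

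Among the close copies, Mup7 and Mup17 differed most between the groups. Mup7 was at 5595, 6504, 7376 and 4754 CPM in control replicates 2 to 5 and at 5952, 1250, 1800 and 885 CPM in C2-AKT replicates 2 to 5. Its C2-AKT libraries other than replicate 2 held 20.6%, 29.7% and 14.6% of the control mean, the lowest percentages among the members in replicates 3 and 5, and the fitted log2 fold change was -1.29 (SE 0.52). Mup17 was at 2317, 2726, 2558 and 2171 CPM in control and at 2139, 618, 649 and 395 CPM in C2-AKT libraries. Mup17 was the only member whose groups did not overlap, by a gap of 2139 against 2171 CPM, and its log2 fold change was -1.36 (SE 0.45). Groups did not overlap, with C2-AKT lower, in 1.63% of the 15686 genes tested.

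Mup1, which in mice has been linked to glucose and lipid metabolism, was at 4024, 4822, 5259 and 4038 CPM in control and at 4689, 1581, 1990 and 1051 CPM in C2-AKT libraries. Its control mean was 4536 ± 610 CPM and its C2-AKT mean 2328 ± 1620 CPM (SD, n = 4 each), with a log2 fold change of -0.96 (SE 0.39). C2-AKT replicate 2 was in the middle of the control range, and the other C2-AKT libraries held between 23.2% and 43.9% of the control mean. Mup12 was at 2163, 2589, 2882 and 2097 CPM in control and at 2599, 708, 946 and 479 CPM in C2-AKT libraries, a log2 fold change of -1.04 (SE 0.45). Mup13 was at 2751, 3472, 3252 and 2793 CPM in control and at 3305, 1174, 1387 and 799 CPM in C2-AKT libraries, a log2 fold change of -0.88 (SE 0.37). Mup2 was at 1769, 2061, 2277 and 1727 CPM in control and at 2219, 764, 1011 and 557 CPM in C2-AKT libraries, a log2 fold change of -0.78 (SE 0.37). All of these secreted pheromone carriers repeated the same order among the C2-AKT libraries, with replicate 2 highest, then 4, 3 and 5.

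The diverged copies differed less. Mup20 encodes darcin, the male scent protein that attracts females, and was at 2322, 2598, 3524 and 2853 CPM in control and at 2799, 1867, 1981 and 922 CPM in C2-AKT libraries. C2-AKT replicates 3 and 4 held 66.1% and 70.2% of the control mean and replicate 5 held 32.7%, and the log2 fold change was -0.58 (SE 0.28). Mup3 was at 6412, 6364, 6546 and 7992 CPM in control and at 7865, 4181, 4633 and 3607 CPM in C2-AKT libraries. Its C2-AKT replicates 3, 4 and 5 held 61.2%, 67.8% and 52.8% of the control mean, and its log2 fold change was -0.43 (SE 0.23). Mup21 was at 183, 188, 198 and 237 CPM in control and at 301, 96.4, 151 and 95.6 CPM in C2-AKT libraries. C2-AKT replicate 2 was the highest of all 8 libraries for Mup21, at 149% of the control mean, and the log2 fold change was -0.32 (SE 0.33). The log2 fold changes of the close copies ran from -1.36 to -0.78 and those of the diverged copies from -0.58 to -0.32, with no test of this difference. Differences this small were not particular to the diverged members. Among other Mup rows, Mup22 was at -0.57 and Mup10 at -0.53, where the median of the 20 tested was -0.78. Without C2-AKT replicate 2 the close copies ran from -2.21 to -1.33 and Mup3, Mup20 and Mup21 were at -0.72, -0.83 and -0.82. Mup21 was at -0.14 without C2-AKT replicate 3 and also without replicate 5, and Mup20 was at -0.35 without C2-AKT replicate 5.

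**Figure D2:**
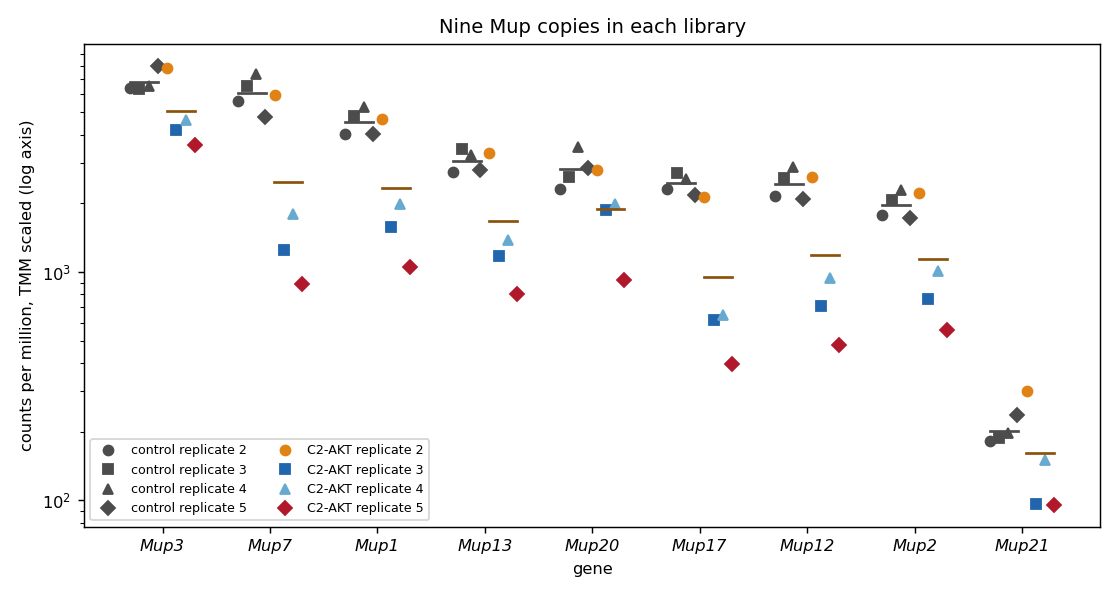
Level of each member in each library, in CPM after TMM scaling on a log axis, with control libraries in dark grey, C2-AKT libraries in colour and short lines for the group means (n = 4 each). C2-AKT replicate 2 sits among the control points for most members, and C2-AKT replicates 3, 4 and 5 sit below every control point for all 9 members.

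The pattern was shared by the members library by library. With C2-AKT replicate 2 left out, the remaining C2-AKT libraries were all below every control library in 9 of 9 members, against 3.88% of the genes tested. C2-AKT replicate 5 was the lowest of the 8 libraries in 9 of 9 members and control replicate 4 the highest in 5. C2-AKT replicate 2 was within the control range in 7 of 9 members, lay below it for Mup17 and above it for Mup21. Since the members were chosen from this contrast and can share reads, these counts describe the members and support nothing further. The spread within groups was wide: the biological coefficient of variation that edgeR estimated ran from 0.257 for Mup3 to 0.505 for Mup7, against a median of 0.18 over all genes tested and 0.155 over the 1246 genes that averaged 100 CPM or more. Mup7 lay at percentile 99.3 of those abundant genes, and Mup3 at percentile 90.6. The members were chosen from calls that turned on single libraries, so this spread, too, is a description and no test.

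The call itself turned on C2-AKT replicate 2. With all 8 libraries, edgeR's quasi-likelihood test with Benjamini-Hochberg adjustment called 0 of the 9 members at 0.05, where 0.0255% of all genes tested were called lower, and 0 were called higher. At an unadjusted p under 0.05, 5 members were lower, where 2.67% of all genes were. DESeq2 called 0 members, where it called 0.152% of the genes it tested lower. Without C2-AKT replicate 2, edgeR called 5 members lower, Mup1, Mup7, Mup12, Mup13 and Mup17, together with 5 other Mup rows among 16 genes called lower (0.101% of genes tested); 1 gene, 0.00628%, was called higher. These are the values that chose the members and are no test of them: just inside the threshold lay Mup1, with an adjusted p of 0.0486 in edgeR, and just outside it Mup2, at 0.0644. Mup3, at 0.189, Mup21, at 0.302, and Mup20, at 0.600, lay further outside. In the 5 libraries whose titles end in _1, 4 members and 5 other Mup rows were among the 17 genes called lower (0.105% of genes tested), and these were Mup7, Mup12, Mup13 and Mup17. That subset leaves out C2-AKT replicates 2 and 5 and control replicate 5. C2-AKT replicate 2 and control replicate 5 are the libraries whose titles have no ending, and the labels do not explain the endings.

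The make-up of the summed count also differed between libraries. Mup3 supplied 23.3%, 20.3%, 19.3% and 27.9% of it in control replicates 2 to 5 and 24.7% in C2-AKT replicate 2, against 34.2%, 31.9% and 41.0% in C2-AKT replicates 3, 4 and 5. Mup7 went the other way, with 16.6% to 21.8% in control, 18.7% in C2-AKT replicate 2 and 10.2%, 12.4% and 10.1% in C2-AKT replicates 3, 4 and 5. Where the sum was low, it therefore held relatively more of Mup3 and less of Mup7. Mup17 supplied 7.55% to 8.70% in control and 6.71%, 5.05%, 4.46% and 4.50% in C2-AKT replicates 2 to 5, all 4 below control. Mup20 supplied 8.30% to 10.4% in control and 15.3%, 13.6% and 10.5% in C2-AKT replicates 3, 4 and 5. The share of Mup2 overlapped between the groups, with 6.03% to 6.72% in control and 6.24% to 6.96% in C2-AKT libraries. Mup1, Mup12 and Mup13 supplied smaller shares in C2-AKT replicates 3, 4 and 5 than in any control library, although for Mup13 the gap was only from 9.59% to 9.60%. The shares computed from the deposited FPKM, which are scaled to transcript length, showed the same ordering for Mup3, at 19.2% to 27.6% in control and 31.5% to 40.5% in C2-AKT replicates 3, 4 and 5.

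**Figure D3:**
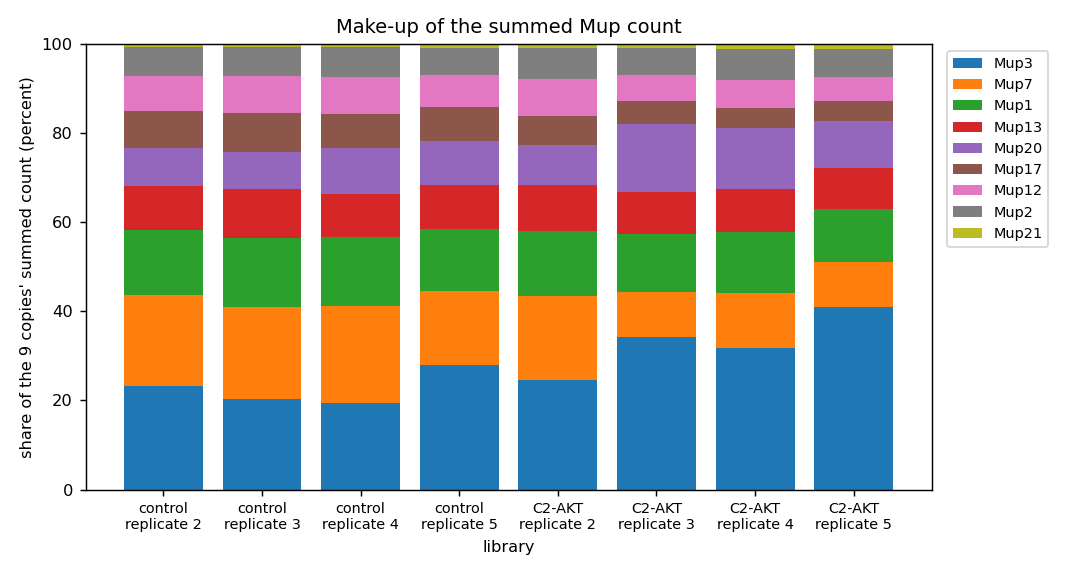
Share (percent) of each member in the summed count of the 9 members, as stacked bars per library. The Mup3 share is 19.3% to 27.9% in control libraries and 31.9% to 41.0% in C2-AKT replicates 3, 4 and 5, where the Mup7 share is 10.1% to 12.4%.

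Levels of different genes were compared on the deposited FPKM scale. In control libraries Mup3 was highest, at 6814 ± 507 FPKM, followed by Mup7 at 5671 ± 1210, Mup1 at 4568 ± 745, Mup13 at 3235 ± 465, Mup20 at 2962 ± 574, Mup17 at 2569 ± 343, Mup12 at 2566 ± 467, Mup2 at 2014 ± 338 and Mup21 at 247 ± 21.4 FPKM (SD, n = 4). Ranges of neighbours in this order overlapped except between Mup1 and Mup13 and between Mup2 and Mup21. Mup7 was nevertheless above Mup1 in all 4 control libraries, and Mup3 was above Mup7 in 3 of 4. In C2-AKT replicate 5 the order differed, with Mup3 at 3158 FPKM, Mup1 at 923, Mup20 at 846, Mup13 at 735 and Mup7 at 724 FPKM. The pancreatic counts are part of that library's total, and their part in its FPKM was not tested.

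The other Mup rows had the same sign as the members. Of the 21 other rows, 20 were tested and all 20 had a negative log2 fold change, with a median of -0.78, against a median of -0.01 over all genes tested. In edgeR 0 of the 20 were called, where 0.0255% of all genes were called lower. At an unadjusted p under 0.05, 6 were lower, where 2.67% of all genes were. DESeq2 called 0, where it called 0.152% of the genes it tested lower. C2-AKT replicates 3, 4 and 5 were all below control in 17 of the 20, against 3.88% of genes tested. These rows, too, can share reads with the members. The sum of the 21 rows was 34197 to 41206 CPM in control and 42363, 16014, 19631 and 11759 CPM in C2-AKT replicates 2 to 5. Mup11 and Mup18 followed the members' sum most closely, with a root mean square difference of 0.06 each on the log2 scale. Mup22 was at 5716 to 6895 CPM in control and at 7255, 3156, 3952 and 2535 CPM in C2-AKT replicates 2 to 5.

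A few rows behaved differently. Mup5, known mainly from salivary tissue, was at 6.61, 60.3, 59.7 and 10.4 CPM in control and at 12.3, 2.72, 4.53 and 1.99 CPM in C2-AKT libraries, so control replicates 3 and 4 stood above all others. Mup4, known mainly from nasal and lachrymal glands, was not tested because of its low counts. It was at 0.881 CPM or less in every library except C2-AKT replicate 2, where it was at 19.7 CPM. The library whose members were at the control level was thus also the one with the highest Mup4. A pair of rows with LOC symbols, named Mup-ps10 and Mup-ps11 by RefSeq only, were low in the same libraries. LOC102640754 (Mup-ps11) was at 3.13 to 5.80 CPM in control and at 0.846, 1.09 and 0.317 CPM in C2-AKT replicates 3, 4 and 5.

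**Figure D4:**
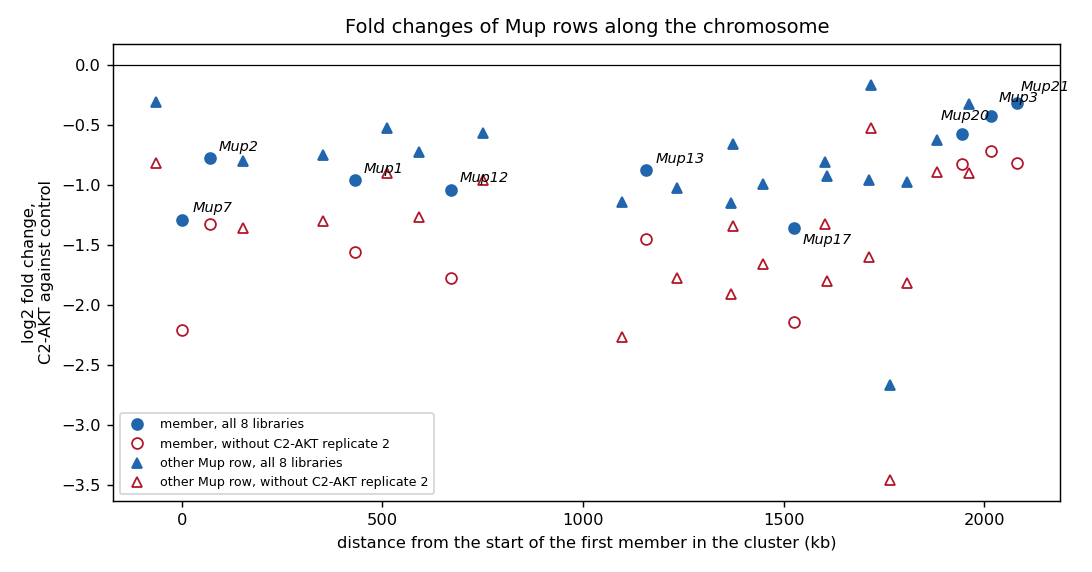
Fitted log2 fold change, C2-AKT against control, of 28 Mup rows with a control mean of at least 1 CPM, against distance in kb from the start of the first member. Filled symbols use all 8 libraries and open symbols leave out C2-AKT replicate 2, circles are members and triangles other Mup rows, and all lie below 0, with Mup20, Mup3 and Mup21 at the right-hand end between -0.58 and -0.32 with all libraries.

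Genes that flank the members gave no calls. Within 1 Mb of the span, 44 rows that are not Mup genes were listed and 22 were tested. edgeR called 0 of these 22, where it called 0.0255% of all genes lower and 0 higher. Beside so small a share, 0 calls say little about these neighbours. An unadjusted p under 0.05 was seen in 1 of them, where 5.13% of all genes tested had one. Of the 22, 11 had a negative log2 fold change. In 2 of the 22, C2-AKT replicates 3, 4 and 5 were all below control, against 3.88% of genes tested. The neighbours with the smallest p were Zfp37, a zinc finger gene, Inip, Zfp618 and 4933430I17Rik, with log2 fold changes of 1.99, 0.24, 0.60 and -1.24 and adjusted p in edgeR of 0.956, 0.994, 0.995 and 0.995. Zfp37 rested on C2-AKT replicate 4, at 5.81 CPM against 0.221 to 0.845 CPM in the other C2-AKT libraries, and was at 0.16 without it. Of the 22 genes, 2 lie between the first and last member, and both are long noncoding RNAs named after their values were seen. Gm21286 was at 3.16 to 4.604 CPM in control and at 5.73, 1.54, 1.90 and 0.401 CPM in C2-AKT replicates 2 to 5, high and low in the same C2-AKT libraries as the members. Gm12909 was at 37.8 to 48.96 CPM in control and at 52.3, 42.1, 37.8 and 29.5 CPM in C2-AKT replicates 2 to 5.

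Genes of growth hormone signalling and transcriptional regulators gave no calls, where edgeR called 0.0255% of all genes lower and 0 higher. DESeq2 called 0.152% of the genes it tested lower and 0.157% higher. Of 14 genes of growth hormone signalling, edgeR and DESeq2 called 0, and the median log2 fold change was -0.03. At an unadjusted p under 0.05, 1 was lower, where 2.67% of all genes were. That gene was Bcl6, a repressor that growth hormone lowers, at 14.4 to 86.1 CPM in control and 8.46 to 21.5 CPM in C2-AKT libraries, with a log2 fold change of -1.61 (SE 0.53, adjusted p = 0.827 in edgeR), or -0.86 without control replicate 2. Stat5b, the transcription factor that carries the growth hormone signal to the male pattern, was at 29.8 to 49.9 CPM in control and 32.7 to 38.9 CPM in C2-AKT libraries, and is named after its values were seen. Cish, Socs3 and Igfals, the other genes of the list with the smallest p, had log2 fold changes of 1.15, -0.99 and 0.21, and Socs3 was at -0.17 without control replicate 5. Of 12 transcriptional regulators, edgeR and DESeq2 called 0, and the median log2 fold change was 0.01. Foxa2, a liver pioneer factor, was the 1 regulator with an unadjusted p under 0.05, where 2.46% of all genes were higher. Its log2 fold change was 0.59 (SE 0.18, adjusted p = 0.779 in edgeR). Onecut1, Cebpa and Hnf4a, hepatocyte transcription factors, had log2 fold changes of 1.27, -0.25 and -0.22, and Onecut1 was at 2.72 without control replicate 4. Zhx2, a repressor of several liver genes, was at 8.52 to 16.6 CPM in control and 8.93 to 14.0 CPM in C2-AKT libraries, and is likewise named after its values were seen.

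Mups belong to the male-biased liver genes, and the other genes of that class were set beside them. Of 16 male-biased genes, edgeR and DESeq2 called 0, where they called 0.0255% and 0.152% of the genes they tested lower. At an unadjusted p under 0.05, 1 was lower, where 2.67% of all genes were, and 14 had a negative log2 fold change. Their median was -0.46 over all libraries, -0.70 without C2-AKT replicate 2 and -0.37 when replicate 5 was left out instead. In 6 of the 16, C2-AKT replicates 3, 4 and 5 were all below control, against 3.88% of genes tested. Their median level in C2-AKT replicates 2 to 5, on the log2 scale relative to the control mean, was 0.22, -0.82, -0.41 and -1.07, where the Mup sum was at 0.08, -1.31, -1.06 and -1.78. The order of the 4 C2-AKT libraries was the same for both. The genes with the smallest p were Gstp1, a glutathione transferase, Cyp4a12a and Cyp4a12b, fatty acid hydroxylases, and C4a, which RefSeq lists as a transcribed pseudogene, with log2 fold changes of -0.68, -0.82, -0.84 and -0.41. Without control replicate 4, Cyp4a12a, Cyp4a12b and C4a were at -0.47, -0.44 and -0.26. Hsd3b5, a steroid reductase chosen after its values were seen, was at 116 to 184 CPM in control and at 126, 31.5, 62.8 and 2.54 CPM in C2-AKT replicates 2 to 5.

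Female-biased genes mostly had the opposite sign. Of 20 listed, 16 were tested and 13 of these had a positive log2 fold change, with a median of 0.55 that was 0.27 without C2-AKT replicate 3. edgeR called 0, where it called 0.0255% of all genes lower and 0 higher. At an unadjusted p under 0.05, 5 were higher and 1 lower, where 2.46% and 2.67% of all genes were. The 1 lower was Cyp3a44, with a log2 fold change of -1.09, and A1bg and Cyp2b10 were at -0.67 and -0.49. The untested genes were at 0.494 CPM or less in every library. Of these, Cyp3a16, Cyp3a41a and Cyp3a41b had lower means in C2-AKT libraries and Sult3a1 a higher one. These genes are named after their values were seen. All 4 C2-AKT libraries were above control in 2 of the 16 genes, against 1.35% of genes tested, and C2-AKT replicates 3, 4 and 5 were in 5, against 3.72%. DESeq2 called 1 higher, where 0.157% of the genes it tested were called higher. That gene was Cyp17a1, a steroid hydroxylase, at 2.67 to 6.85 CPM in control and at 21.5, 11.0, 9.70 and 9.74 CPM in C2-AKT replicates 2 to 5, with a log2 fold change of 1.45 (SE 0.34, adjusted p = 0.575 in edgeR and 0.00631 in DESeq2). Cyp17a1 was highest in C2-AKT replicate 2, the library in which the Mup members were not low. Cyp2a4, a steroid hydroxylase with near-identical relatives, was at 4.04 to 6.98 CPM in control and 7.40 to 16.2 CPM in C2-AKT libraries. Acot3 and Cyp39a1 had log2 fold changes of 0.85 and 0.61. The median level of the list relative to control was -0.03 in C2-AKT replicate 2 and 0.73, 0.31 and 0.41 in replicates 3, 4 and 5.

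**Figure D5:**
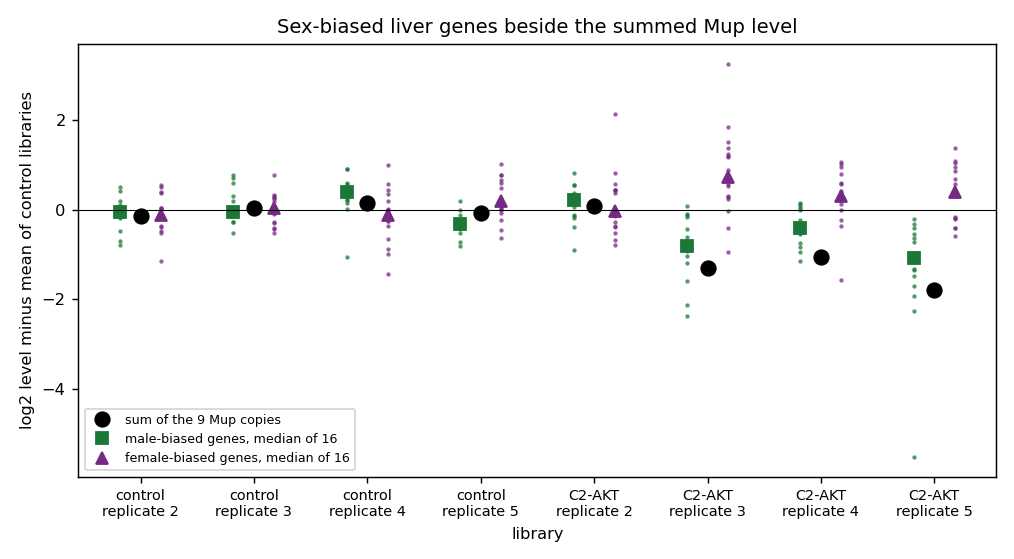
Log2 level relative to the control mean in each library, for the sum of the 9 Mup members (black), the median of 16 male-biased genes (green) and the median of 16 female-biased genes (purple), with small dots for single genes. In C2-AKT replicates 3, 4 and 5 the Mup sum lies at -1.31, -1.06 and -1.78 and the male-biased median at -0.82, -0.41 and -1.07, while in C2-AKT replicate 2 they lie at 0.08 and 0.22.

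Other secreted liver proteins gave no calls, where edgeR called 0.0255% of all genes lower and 0 higher. DESeq2 called 0.152% of the genes it tested lower and 0.157% higher. The Mup members had 0 calls as well. Among 16 plasma protein genes edgeR and DESeq2 called 0, and the median log2 fold change was 0.00. An unadjusted p under 0.05 was seen in 0 of them, against 5.13% of genes tested. Alb, the albumin gene, had a log2 fold change of 0.23 (SE 0.15), and Ttr, Apoh and Ambp had 0.17, 0.16 and -0.13. Of 9 tested lipocalins outside the Mup family, edgeR and DESeq2 called 0. At an unadjusted p under 0.05, 1 was lower, where 2.67% of all genes were. The median log2 fold change of the 9 was -0.44. That median was -0.22 without C2-AKT replicate 2, -0.24 without control replicate 5 and -0.74 without C2-AKT replicate 5. The gene was Orm3, an acute-phase glycoprotein (log2 fold change -0.99, SE 0.38, adjusted p = 0.898 in edgeR), and Orm1 and C8g had -0.51 and -0.19. Without control replicate 5, Orm3 was at -0.45 and Orm1 at -0.31. Lcn2 was at 97.5 ± 64.6 CPM in control libraries and at 48.8 ± 46.7 CPM with C2-AKT (SD, n = 4 each). In 0 of these lipocalins and 0 of the plasma proteins were C2-AKT replicates 3, 4 and 5 all below control, against 3.88% of genes tested.

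The genes most like the Mup sum were sought among 13332 tested genes by the root mean square difference of log2(CPM + 0.5) after centring over the 8 libraries, where the median gene differed by 0.73. The closest were Ugt2b37, a glucuronosyltransferase (0.17), Hsd3b4, a steroid dehydrogenase family gene (0.18), Cyp7b1, an oxysterol hydroxylase (0.21), Ces4a, a carboxylesterase (0.23), Serpina12, a serpin (0.24), and Rarres1 (0.29). Hsd3b4 was near the floor, at 1.05 to 1.53 CPM in control and 0 to 1.02 CPM in C2-AKT libraries, so the added 0.5 weighs on its profile. Cyp7b1 was at 218, 285, 255 and 179 CPM in control and at 268, 76.5, 137 and 59.96 CPM in C2-AKT replicates 2 to 5. Serpina12 was at 36.1, 43.1, 53.1 and 32.6 CPM in control and at 57.3, 13.2, 15.3 and 12.2 CPM in C2-AKT replicates 2 to 5. Both thus separated C2-AKT replicate 2 from the other C2-AKT libraries, as the members did, and they were picked for that likeness. Centred within each group, which leaves only the spread among replicates, the closest were Adgrv1 (0.10), Ces3b and Ugt2b37 (0.16 each), Hsd3b4 (0.17), and Ugt2b1 and Omd (0.19 each), with 0.52 for the median gene. Ces3b, a carboxylesterase, was at 372, 356, 493 and 307 CPM in control and at 680, 333, 373 and 203 CPM in C2-AKT replicates 2 to 5, so it followed the Mup sum among replicates. Its log2 fold change was 0.06 over all libraries and -0.33 without C2-AKT replicate 2.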

How the data were processed

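Liver RNA was analysed in 8 libraries, 4 C2-AKT and 4 control. The authors deposited 1 table with estimated counts, FPKM and TPM per gene and library, per the file headers. The deposited counts are whole numbers and were used as they stand. The submitters' processing notes name HISAT2 2.1.0, StringTie 2.1.3b, Trimmomatic and bcl2fastq 2.20.0, with GRCm38/mm10. Settings, strand and the treatment of reads that match several genes: not given in the sources used here. Near-identical genes can share reads in such a table.

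Counts were fitted with edgeR 4.0.16 (filterByExpr, TMM, quasi-likelihood test, two-sided, Benjamini-Hochberg over 15686 genes, threshold 0.05), with no covariate. An SE is the log2 fold change over the square root of F. CPM are per TMM-scaled library size, and the filter removed 17.2% of the counts of C2-AKT replicate 5. Alternatives used DESeq2 1.42.0 and limma 3.58.1; steps were tested on simulated data. Total counts were 51.4 M to 63.8 M, which leaves counting error small. No pair of libraries had over 1.31% equal counts. The members, gene lists and the rule for named genes were chosen with earlier results of these data known. Named genes are all Mup rows, up to 4 genes per list and among neighbours by smallest p, 6 genes by each likeness measure, and the checks Gt(ROSA)26Sor, Akt1, Akt2 and Alb. Of 45777 identifiers, 45679 were matched to RefSeq for coordinates. Transcript windows and identities come from GENCODE M21. No paired design was assumed, since same-numbered libraries deviated together with r across genes of only -0.20, 0.01, 0.09 and -0.04. Genes are not independent replicates. The highest r between a control and a C2-AKT library was 0.40, for control replicate 5 and C2-AKT replicate 2. Only these libraries have titles without an ending, and the labels do not say what the endings stand for. The part of this likeness in the Mup values was not tested.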

Additional observations from a re-analysis of the deposited data

Results flagged for a closer look

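Within groups of 4 libraries, 18 of 144 groups examined had 1 library set apart from the other 3. The gap there was beyond Dixon's 95% critical value for 4 samples. The groups come from the Mup rows, their sum and the named genes. Many of these were picked from these data and resemble each other, so the count is a description and is not set against a chance rate. No explanation was weighed. Among Mup rows, Mup17 was at 2139 CPM in C2-AKT replicate 2 against 395 to 649 CPM in the other C2-AKT libraries, and Mup15 at 2535 CPM against 584 to 738 CPM. Mup4 was at 19.7 CPM in C2-AKT replicate 2, against at most 0.442 CPM in the other C2-AKT libraries, and at 0.881 CPM in control replicate 5, against at most 0.0748 CPM in the other controls. Mup3 was at 7992 CPM in control replicate 5 against 6364 to 6546 CPM.

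Also set apart in C2-AKT replicate 2 were Serpina12 (57.3 CPM), Rarres1 (83.2 CPM), Cyp4a12a (107 CPM), Cyp17a1 (21.5 CPM) and Apoh (1641 CPM), each above the other C2-AKT libraries. C2-AKT replicate 5 was above the others for Socs3 (18.4 CPM), Lcn2 (119 CPM) and Inip (5.01 CPM). Ttr was at 4805 CPM in C2-AKT replicate 3 and Zfp37 at 5.81 CPM in C2-AKT replicate 4, both above the others. Among controls, Onecut1 was at 42.2 CPM in replicate 4 and Orm3 at 26.2 CPM in replicate 5, both above the other controls, and Cebpa at 113 CPM in replicate 5, below 315 to 340 CPM in the others.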

How the results depend on the processing

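The log2 ratio of the summed Mup level was -0.85 and ran from -1.36 to -0.63 over 17 alternatives, with a negative sign in all. The 9 members kept a negative log2 fold change in 180 of 180 values under 20 alternatives, and Mup7 and Mup17 moved by over 1 SD without C2-AKT replicate 2, to -2.21 and -2.14. Over all genes, edgeR called 4; DESeq2's Wald test called 57, the libraries with titles ending in _1 gave 17, and leaving out single libraries gave 1 to 17, with 17 without C2-AKT replicate 2, 7 without C2-AKT replicate 3 and 1 without control replicate 2. With the replicate block 4 genes were called and the summed level was -1.02; same-numbered libraries share only a number, and the block changed no call of a member. The female-biased median was 0.27 to 0.72 with single libraries left out, lowest without C2-AKT replicate 3, and DESeq2 called 1 of its genes. The lipocalin median was -0.73 when title ending was a term and -0.74 (without C2-AKT replicate 5) to -0.22 with single libraries left out. The cause of these shifts was not tested.

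Signs reversed in 18 values of genes near 0. Akt1 was 0.04, and -0.01 with library totals alone, -0.06 when title ending was a term, -0.08 with titles ending in _1, and -0.10 to 0.17 with single libraries left out. Adgrv1 was 0.19, and -0.07 with the replicate block, -0.33 with titles ending in _1 and -0.48 to 0.44 with libraries left out. Ces3b was 0.06, and -0.05 in both limma fits on FPKM, -0.06 with the block, -0.20 with titles ending in _1 and -0.33 to 0.27 with libraries left out. Ugt2b1 was -0.09, and 0.03 when title ending was a term and -0.38 to 0.09 with libraries left out. Omd was 0.30, and -0.13 to 0.48 with libraries left out.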
